A study of Mus musculus with 54 samples.

Results

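The 8 genes described here are neighbours on mouse chromosome 2 and were followed through every RNA-seq library and ChIP-seq peak list of a study of CTCF and BORIS in spermatogenesis: Ctcfl, which encodes BORIS, Spo11, Rae1, Rbm38, Pck1, Zbp1, Pmepa1 and Bmp7. They were taken by symbol from both count matrices, where all 8 of the 8 genes were found among the 23284 listed. The study asked how male germ cells depend on CTCF and on its testis paralog BORIS. RNA was sequenced from germ cell-enriched testis preparations, called whole testis here (12 libraries, each from 4 pooled mice). It was also sequenced from purified round spermatids (12 libraries) and from purified spermatocytes (11 libraries). All mice were C57BL/6 of 3 months. The paper states the pooling for whole testis and does not repeat it for the sorted libraries. CTCF and BORIS peaks, with peaks of RNA polymerase II (Pol2) and of the promoter mark H3K4me3, were mapped in germ cell-enriched preparations.

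The 4 genotypes were wild type (WT), CTCF HET, with 1 working Ctcf allele, BORIS KO, with none of Boris (Boris-/-), and the compound mutant CM, which joins both (Ctcf+/- Boris-/-). How the knockout alleles were made is not given in the sources used here. Each genotype had 3 libraries in each preparation, except WT spermatocytes with 2. Since each whole testis library is a pool of mice, the p-values there measure the spread between pools. In sorted cells they measure the spread between libraries. In the genome build mm9 the genes lie in the order Bmp7 (chr2:172693513-172765822, minus strand), Spo11 (chr2:172803201-172819077, plus), Rae1 (chr2:172825618-172841240, plus), Rbm38 (chr2:172845999-172860235, plus), Ctcfl (chr2:172919110-172945026, minus), Pck1 (chr2:172978549-172984774, plus), Zbp1 (chr2:173032113-173044424, minus) and Pmepa1 (chr2:173049959-173102034, minus). Spo11, Rae1 and Rbm38 follow one another on the same strand with gaps of 6540 and 4758 bp, and Rbm38 and Ctcfl point towards each other across 58874 bp.

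CTCF is a DNA-binding protein with a row of zinc fingers that helps to fold chromosomes into loops, and BORIS, its paralog, reads closely related DNA sites but is made mainly in germ cells of the testis. SPO11 is the enzyme that cuts DNA at the start of meiotic recombination, in early prophase spermatocytes, and further proteins place the breaks and mend them. The other genes have unrelated roles: RAE1 works in messenger RNA export and at the spindle, RBM38 binds RNA, PCK1 is the entry enzyme of gluconeogenesis, ZBP1 senses Z-form nucleic acids, PMEPA1 dampens TGF-beta signalling and BMP7 is a secreted ligand of the same family.

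Of the sequences at these genes, those under 4 of the 5 CTCF peaks that overlapped a BORIS peak are shown, because these are the places where both proteins were mapped. The plainest is an array in intron 9 of Ctcfl (chr2:172922883-172923074), in which 6 adjoining copies of 32 bases each hold the 12 bases of a core CTCF motif, CCTGTAGGTGGC on the minus strand. The plus strand of mm9 is given, copy after copy with no gap, and the capitals mark the motif.
copy 1: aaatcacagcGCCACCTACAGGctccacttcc
copy 2: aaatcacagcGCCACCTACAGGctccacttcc
copy 3: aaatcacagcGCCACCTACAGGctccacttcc
copy 4: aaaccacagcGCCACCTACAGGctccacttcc
copy 5: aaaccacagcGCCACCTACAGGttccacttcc
copy 6: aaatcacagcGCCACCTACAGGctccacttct

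The first 3 copies are identical. Counted from 1 at the 5′ end of a copy, and with the base of copy 1 first, copy 4 differs by T4C, copy 5 by T4C and C23T and copy 6 by C32T. All these changes lie outside the motif, which is the same in the 6 copies. A further match to the same core on the plus strand (chr2:172922788-172922799) lies in the peak outside the array.

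The other places shown, where a BORIS peak also overlapped a CTCF peak, are promoters. Their BORIS peaks had heights of 112 at Rae1 (percentile 65.1 of the list), 38 at Zbp1 (11.1) and 16 at Spo11 (0.2). The 120 bases around the WT CTCF summit are given on the plus strand of mm9 for Rae1 (chr2:172825231-172825350), Zbp1 (chr2:173045285-173045404) and Spo11 (chr2:172805581-172805700). Capitals again mark a core motif.
Rae1: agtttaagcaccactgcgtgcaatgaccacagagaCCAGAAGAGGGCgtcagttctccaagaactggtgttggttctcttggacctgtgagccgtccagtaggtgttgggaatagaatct
Zbp1: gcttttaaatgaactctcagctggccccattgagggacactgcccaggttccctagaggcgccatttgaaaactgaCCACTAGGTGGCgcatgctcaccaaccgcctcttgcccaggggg
Spo11: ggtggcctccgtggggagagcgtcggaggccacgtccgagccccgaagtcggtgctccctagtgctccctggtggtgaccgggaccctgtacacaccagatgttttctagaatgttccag

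Motifs were searched on both strands as CCNNNAGNNGGC and, in a stricter form contained in the first, CCNNNAGGNGGC. Zbp1 and the 6 copies of the array match the stricter form, and Rae1 matches the looser form. No match lay in the 300 bases around the summit at Spo11, which says no more than that these letters are not in that window. Of all 34625 WT CTCF summits, 50.8% had a match to the looser form within 300 bases and 22.5% to the stricter form, against 9.68% and 4.07% of 22380 promoters of the same length. Of 7652 BORIS summits the shares were 55.4% and 38.7%. The array stands at the far end of these lists: 6 or more stricter matches in one window occurred at 3 of the WT CTCF summits and at 2 of the BORIS summits.

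**Figure D1:**
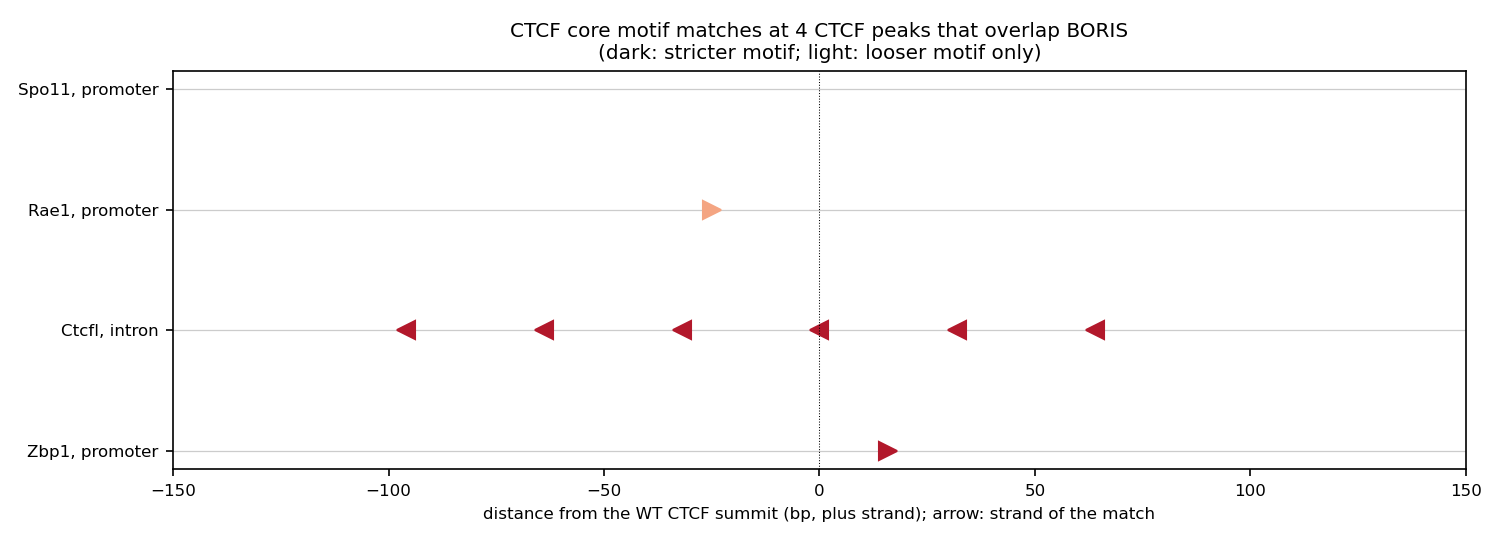
Core CTCF motif matches (arrow heads, pointing along the strand of the match; dark for the stricter and light for the looser form) by distance in bp from the WT CTCF summit, for 4 of the 5 CTCF peaks that overlap a BORIS peak. The Ctcfl intron peak carries 6 matches, 32 bp apart and all on the minus strand, Rae1 and Zbp1 carry 1 each, and the Spo11 promoter summit carries none within 150 bp.

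Depth was uneven between preparations. Total counts ran from 10437683 to 42055813 in whole testis, from 47740650 to 98545423 in round spermatids and from 53337530 to 88946702 in spermatocytes. Fewest genes were detected in CTCF HET spermatocytes (12018 to 13406), CM spermatocytes (14145 to 16666) and CM round spermatids (14932 to 16670), against 17504 to 18978 in the other sorted libraries. Levels are given as CPM, the counts relative to library sizes scaled by the TMM method, and a gene was called at an adjusted p < 0.05 in edgeR's quasi-likelihood test with Benjamini-Hochberg adjustment over all genes tested.

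The targeted genes were looked at first. Ctcf stood at 42.5 CPM ± 3.89 (SD, n = 3) in WT whole testis, 34.7 ± 3.34 in BORIS KO, 26.7 ± 4.02 in CTCF HET and 26.1 ± 1.81 in CM, so both genotypes with 1 Ctcf allele were lowest there. In sorted cells the order was different. Ctcf stood at 172, 44.6 and 39.5 CPM in the round spermatid libraries labelled CM against 48.7, 31.3 and 29.4 in WT, and at 85.9, 34 and 33 CPM in the spermatocyte libraries labelled CM against 35.2 and 33.3 in WT. CTCF HET spermatocytes held 44.4, 52.4 and 32.3 CPM (log2 fold change 0.34 ± 0.22, adjusted p = 0.366). As groups, the sorted CM libraries and the CTCF HET spermatocytes were thus not lower in Ctcf than WT, and their genotype rests on the label.

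Ctcfl, the gene that is knocked out in BORIS KO and CM, had few counts in whole testis. Of the sorted WT cells it was higher in round spermatids than in spermatocytes. Spermatogonia were not sorted, and the paper reports the highest Boris level of single cells in undifferentiated spermatogonia. Whole testis and sorted cell RNA were selected differently, so levels are not ranked between those tables. In whole testis its counts were 18, 9 and 8 in WT, 8 in each CTCF HET library, 7, 5 and 3 in BORIS KO and 8, 2 and 2 in CM. As CPM these were 0.6 ± 0.08 in WT, 0.256 ± 0.124 in BORIS KO, 0.535 ± 0.234 in CTCF HET and 0.16 ± 0.0393 in CM (SD, n = 3 each). Every BORIS KO and CM library lay below every WT library, while CTCF HET overlapped WT. The gene fell below the low-count filter in this preparation, and the exact two-sided permutation test gave p = 0.1 for BORIS KO and for CM against WT, the smallest p that 3 libraries against 3 allow.

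In round spermatids Ctcfl stood at 2.84, 5.12 and 3.38 CPM in WT, 1.97, 2.09 and 2.39 in BORIS KO, 2.58, 3.07 and 3.4 in CTCF HET and 2.55, 1.7 and 1.11 in the libraries labelled CM. BORIS KO was therefore at 56.9% of the WT mean, not near 0, and did not overlap WT. The log2 fold change of BORIS KO was -0.78 ± 0.25 (SE, adjusted p = 0.0248). CM was at 47.2% of the WT mean and did not pass (adjusted p = 0.285). The BORIS KO call was lost without WT replicate 2 (-0.52, adjusted p = 0.0833) and without BORIS KO replicate 1 (-0.72, 0.0852), replicate 2 (-0.75, 0.0805) or replicate 3 (-0.82, 0.052). The part of the gene that the knockout allele removes is not given in the sources used here, so transcripts read from the remaining exons and transcripts of an intact gene cannot be told apart in these counts.

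A non-coding gene on the other strand, 1300015D01Rik (chr2:172936319-172958705, plus strand), overlaps the 5′ part of Ctcfl. It stood at 1.31, 6.44 and 6.11 CPM in WT round spermatids, 0.793, 0.836 and 0.844 in BORIS KO, 1.04, 0.548 and 2.75 in CTCF HET and 1.76, 9.56 and 3.61 in the libraries labelled CM. It fell in BORIS KO round spermatids by 2.44 ± 0.52 on the log2 scale (adjusted p = 0.00351) and was higher in CM than in BORIS KO (2.57 ± 0.65, adjusted p = 0.034). The use of strand in counting is not given in the sources used here, and without it reads of the overlapping stretch cannot be assigned to one gene or the other.

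Spermatocytes held almost no Ctcfl reads: the counts were 6 and 5 in WT, 1, 8 and 0 in BORIS KO, 0, 94 and 0 in CTCF HET and 0, 29 and 0 in CM. The single CTCF HET library with 94 counts and the single CM library with 29 stood apart from their groups. Between the WT cell types the gene was higher in round spermatids by 5.69 ± 0.45 on the log2 scale (adjusted p = 2.26e-05), with no overlap between the 3 and the 2 libraries.

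**Figure D2:**
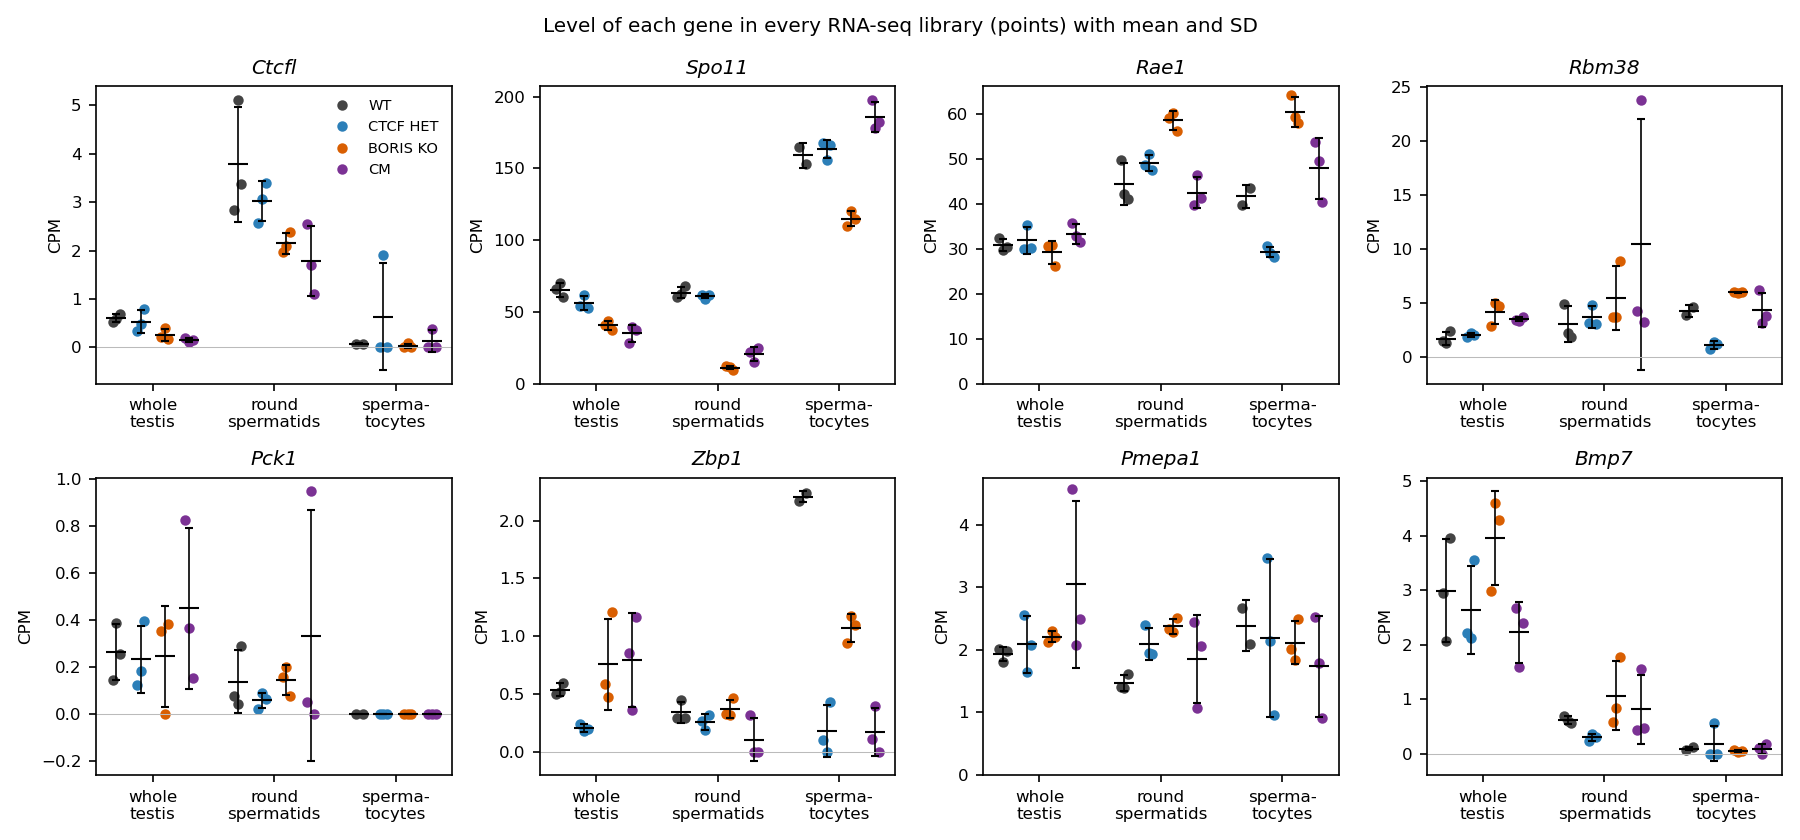
CPM of each of the 8 genes (vertical axes, each with its own scale) in every RNA-seq library (points), by preparation and genotype, with the mean (bar) and SD (whisker). Spo11 is highest in spermatocytes, 153 to 198 CPM in the WT, CTCF HET and CM libraries, and lowest in BORIS KO round spermatids at 9.74 to 11.9 CPM.

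In BORIS KO round spermatids Spo11 moved furthest of the 8 genes. In round spermatids it stood at 60.2, 62.4 and 67.7 CPM in WT and 61.5, 59.2 and 61.9 in CTCF HET. BORIS KO held 11.9, 11.8 and 9.74 CPM and the libraries labelled CM 22.3, 14.7 and 24.5. The BORIS KO mean was 17.5% of WT and the CM mean 32.3%, and neither group overlapped WT, while CTCF HET overlapped it.

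The log2 fold change of Spo11 in BORIS KO round spermatids was -2.47 ± 0.13 (95% interval -2.77 to -2.17, adjusted p = 3.61e-06). Only 90 of the 15513 genes tested there, 0.58%, fell further. In CTCF HET the log2 fold change was -0.04 ± 0.10 (95% interval -0.27 to 0.18). CM differed from WT by -1.55 ± 0.22, which did not pass the test (adjusted p = 0.107), but it passed when CM replicate 1 was left out (-1.58, adjusted p = 0.0435), with all 4 genotypes in one fit (-1.60, 0.00162) and in DESeq2 (-1.54, 4.92e-07).

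The summed markers of germ cell stages also differed between genotypes. The summed level of the 10 spermatocyte markers was 7616 to 8046 CPM in WT round spermatids, 6715 to 6924 in BORIS KO, with CM at 5080 to 7556. The 9 round spermatid markers found in the table summed to 1864 to 1973 CPM in WT, 1380 to 1534 in BORIS KO, 1360 to 1407 in CTCF HET and 845 to 1240 in CM. The 8 markers of elongating spermatids summed to 3281 to 4617 CPM in WT, 1393 to 2466 in BORIS KO, 1743 to 2065 in CTCF HET and 1547 to 2167 in CM. The 10 markers of spermatogonia summed to 37.4 to 40.4 CPM in WT, 31.7 to 47.3 in BORIS KO, 37.6 to 47.7 in CTCF HET and 61.5, 325 and 67.9 in CM. The CM library with 325, replicate 2, stood apart, and it was also the library lowest in the spermatocyte (5080) and round spermatid (845) sums. The part of these shifts in the round spermatid levels was not tested. In bulk samples fewer cells of a type and less RNA per cell cannot be told apart.

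The sorted spermatocytes were not split by meiotic stage, so the early prophase cells in which SPO11 cuts DNA were not seen apart. Spermatocytes as a whole held more Spo11 RNA than round spermatids in every genotype. It stood at 165 and 153 CPM in WT, 110, 120 and 115 in BORIS KO, 168, 156 and 166 in CTCF HET and 198, 178 and 182 in the libraries labelled CM. BORIS KO lay below WT without overlap, at 72.1% of its mean, and CM lay above WT, at 117%. BORIS KO fell by 0.48 ± 0.06 on the log2 scale (SE, adjusted p = 4.41e-05), whereas the CM value of 0.27 ± 0.10 did not pass (adjusted p = 0.131). CM was higher than BORIS KO by 0.72 ± 0.07 (adjusted p = 4.80e-04), with no overlap. The 10 spermatocyte markers summed to 11694 to 12328 CPM in WT, 9825 to 10702 in BORIS KO, with CM spermatocytes at 10191 to 11452. Markers of elongating spermatids summed to 62.1 to 67.2 CPM in WT and 69.9 to 87.9 in BORIS KO. CTCF HET had 125 to 301 and CM 67.5 to 297. In the same genotype order, round spermatid markers summed to 356 to 390, 332 to 397, 321 to 412 and 260 to 310 CPM. Spermatogonia markers summed in that order to 157 to 164, 145 to 152, 133 to 151 and 190 to 263 CPM. The part of these shifts in the Spo11 levels was not tested.

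For Spo11 and the other neighbours of Ctcfl, loss of BORIS and a change at the targeted locus cannot be told apart. The difference of BORIS KO from WT in Spo11 was not equal in round spermatids and spermatocytes. Fitted together, the log2 effect of BORIS KO in round spermatids minus that in spermatocytes was -2.07 ± 0.14 (adjusted p = 4.88e-05), and that of CM was -1.88 ± 0.28 (adjusted p = 0.017). The CM difference was lost without WT round spermatid replicate 2 (-1.89, adjusted p = 0.0559) or 3 (-1.83, 0.0594) and without WT spermatocyte replicate 1 (-1.88, 0.155) or 2 (-1.80, 0.175). In WT itself Spo11 was lower in round spermatids than in spermatocytes by 1.30 on the log2 scale (-1.30 ± 0.10, adjusted p = 2.07e-05).

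CM did not equal the sum of the single mutants for Spo11 in sorted cells. On the log2 scale its level was higher than that sum by 0.87 ± 0.24 in round spermatids (adjusted p = 0.015) and by 0.68 ± 0.12 in spermatocytes (adjusted p = 0.00955), the latter lost without WT spermatocyte replicate 1 (0.61, adjusted p = 0.122). In whole testis the departure was -0.01 ± 0.26 (95% interval -0.58 to 0.56). The gap between CM and BORIS KO in round spermatids, 0.86 ± 0.26, fell just short of the threshold (adjusted p = 0.0514) and passed it without CM replicate 2 (1.04, adjusted p = 0.00663), with RLE size factors (0.84, 0.0481), in DESeq2 (0.84, 0.00976) and with all 4 genotypes in one fit (0.84, 0.00249).

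In whole testis every BORIS KO and CM library held less Spo11 than every WT library. The 3 WT libraries held 65.9, 69.8 and 60.4 CPM and the CTCF HET libraries 54.1, 61.7 and 52.5. BORIS KO held 41.1, 43.6 and 37.2 CPM and CM 28, 39.2 and 37.5. As groups, CTCF HET overlapped WT, and CM overlapped BORIS KO. By replicate number, each CTCF HET library lay below its WT library. CM lay below BORIS KO for replicates 1 and 2 and above it for replicate 3.

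Against WT the log2 fold change was -0.21 ± 0.18 in CTCF HET (adjusted p = 1), -0.69 ± 0.15 in BORIS KO (adjusted p = 0.2) and -0.93 ± 0.24 in CM (adjusted p = 0.0246). CM against BORIS KO was -0.25 ± 0.24 (adjusted p = 0.565). BORIS KO passed in DESeq2 (-0.73, adjusted p = 0.00806) and with the replicate number as a block (-0.69, 0.017), a fit that applies here because same-numbered whole testis libraries deviated together. The CM call was lost without WT replicate 1 (-0.97, adjusted p = 0.0575), WT replicate 2 (-0.88, 0.105), WT replicate 3 (-0.97, 0.0751) or CM replicate 3 (-0.96, 0.0675).

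The cell content of whole testis moved with genotype in the same comparisons. The 9 Sertoli cell markers summed to 217 to 366 CPM in WT, 419 to 507 in BORIS KO, with CM at 584 to 1216, and the 8 Leydig cell markers to 386 to 648, 762 to 1518 and 1916 to 3832. Markers of elongating spermatids summed to 20796 to 28794 CPM in WT and 5564 to 14749 in CM, and those of spermatocytes to 5822 to 7696 and 2165 to 5951. The part of these shifts in the whole testis levels was not tested. In round spermatids the Sertoli sum was at most 2.97 CPM and the Leydig sum at most 21.6 CPM.

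The genes that make and mend meiotic breaks were taken as a list of 23, of which 20 are in the tables and Spo11 is one. In BORIS KO round spermatids 13 of 20 were called, 12 lower and 1 higher, with a median log2 fold change of -0.76 beside -0.01 over all genes tested; 55.8% of all genes were called in that comparison, in both directions together. Hormad1, a protein of the unsynapsed chromosome axis, fell by 1.96 ± 0.13 on the log2 scale (20.7 against 82.6 CPM). Rad50 and Nbn, partners in the complex that trims break ends, fell by 1.41 ± 0.12 and 0.89 ± 0.09. Spo11 had a lower value than each of the 11 others that fell in this comparison, as the plot of this list shows.

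In BORIS KO spermatocytes 14 of 19 were called, 13 of them lower, with a median of -0.43 beside 0.02, where 57.2% of all genes were called. Rad50 fell by 0.89 ± 0.09, Hormad1 by 0.82 ± 0.09, Brca2, which loads recombinases onto DNA, by 0.80 ± 0.07 and Nbn by 0.59 ± 0.07. The fall of Spo11 in those cells, 0.48 ± 0.06, was smaller than each of these values; the differences between genes were not tested. In CM against BORIS KO, 10 of 20 were called in round spermatids, all higher (median 1.93 beside 0.05; 23.2% of all genes called), and 15 of 19 in spermatocytes, 13 higher (median 0.79 beside 0.02; 51.8% called).

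In round spermatids labelled CM the list had a median of 1.20 against WT and Spo11 had -1.55. No gene of the list was called there in edgeR, where 0.00654% of all genes were called, and the markers of spermatogonia were above WT in the same libraries. In CM whole testis 2 of 19 were called, Spo11 lower and Atm, a kinase that answers breaks, higher by 1.03 ± 0.26. The median of the list was -0.08 there, and 25.2% of all genes were called. WT round spermatids and WT spermatocytes differed in 19 of its 20 genes, beside 70% of all genes, 8 higher and 11 lower in round spermatids, where Spata22, Ccdc36 and Brca2 fell by 5.25, 2.67 and 1.28 on the log2 scale.

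**Figure D3:**
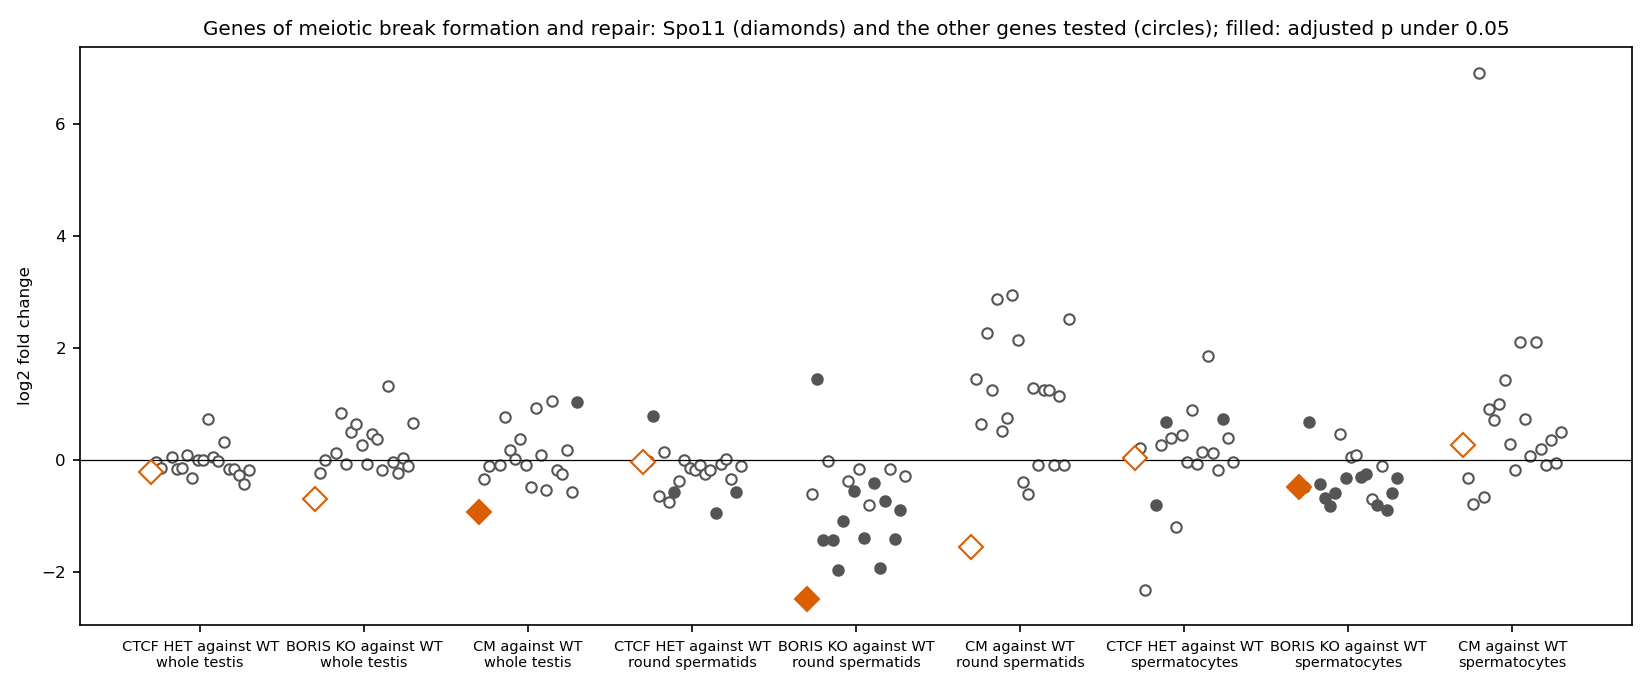
Log2 fold changes (vertical axis) of Spo11 (diamonds) and of the other genes of meiotic break formation and repair that were tested (circles), in each mutant against WT and each preparation; filled marks passed an adjusted p < 0.05. Spo11 is the lowest mark in BORIS KO round spermatids at -2.47 and lies below 0 in CM round spermatids at -1.55, where most of the circles lie above 0.

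Rae1, the next gene downstream of Spo11 on the same strand, moved the other way in BORIS KO sorted cells. In round spermatids it stood at 49.8, 42.2 and 41.1 CPM in WT, 59.1, 60.2 and 56.3 in BORIS KO, 48.7, 51.1 and 47.6 in CTCF HET and 39.7, 46.3 and 41.3 in CM. BORIS KO alone lay clear above WT, by 0.44 ± 0.11 on the log2 scale (adjusted p = 0.00758). CM was lower than the sum of the single mutants by 0.67 on the log2 scale (-0.67 ± 0.19, adjusted p = 0.0163), which was lost without CTCF HET replicate 2 (-0.57, 0.0578).

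In spermatocytes Rae1 stood at 39.8 and 43.5 CPM in WT, 64.3, 59.2 and 58 in BORIS KO, 30.5, 29.1 and 28.2 in CTCF HET and 53.7, 49.5 and 40.5 in CM. BORIS KO was above and CTCF HET below WT, both without overlap. BORIS KO rose by 0.53 ± 0.07 (adjusted p = 5.44e-05). CTCF HET fell by 0.50 ± 0.14 (adjusted p = 0.0441), and the call was lost without any 1 of the 5 libraries compared (-0.59 to -0.44, adjusted p 0.0593 to 0.615). CM against BORIS KO was -0.32 ± 0.11 (adjusted p = 0.0476), lost without BORIS KO replicate 1, 2 or 3 (-0.29, -0.35 and -0.37) and without CM replicate 2 or 3 (-0.39 and -0.26). In whole testis Rae1 stayed between 26.2 and 35.7 CPM in the 12 libraries, and its 95% intervals against WT were -0.43 to 0.26 in BORIS KO, -0.35 to 0.47 in CTCF HET and -0.38 to 0.54 in CM.

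Rbm38, the third gene of this row, was scarcer and more variable. In whole testis it stood at 1.45, 1.23 and 2.32 CPM in WT, 2.84, 4.92 and 4.67 in BORIS KO, 1.77, 2.19 and 1.98 in CTCF HET and 3.41, 3.3 and 3.66 in CM. Both genotypes without BORIS lay above WT with no overlap. The log2 fold changes, 1.33 ± 0.37 in BORIS KO (adjusted p = 0.212) and 1.03 ± 0.35 in CM (adjusted p = 0.0586), did not pass the test, but both passed with the replicate block, and CM also in DESeq2 and with all 4 genotypes in one fit.

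In spermatocytes Rbm38 stood at 3.8 and 4.6 CPM in WT, 5.98, 5.89 and 6 in BORIS KO, 0.658, 1.36 and 1.13 in CTCF HET and 6.13, 3.1 and 3.71 in CM. It rose in BORIS KO by 0.50 ± 0.11 (adjusted p = 0.00266), a call lost without WT replicate 1 (0.37, 0.0504) and with all 4 genotypes in one fit (0.50, 0.542). In CTCF HET the difference was -1.99 ± 0.57 (adjusted p = 0.0553). In round spermatids 1 CM library stood apart, with 23.8 CPM beside 4.18 and 3.17, and none of the genotypes passed the test. That library, replicate 2, is the one with 325 CPM of spermatogonia markers.

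**Figure D4:**
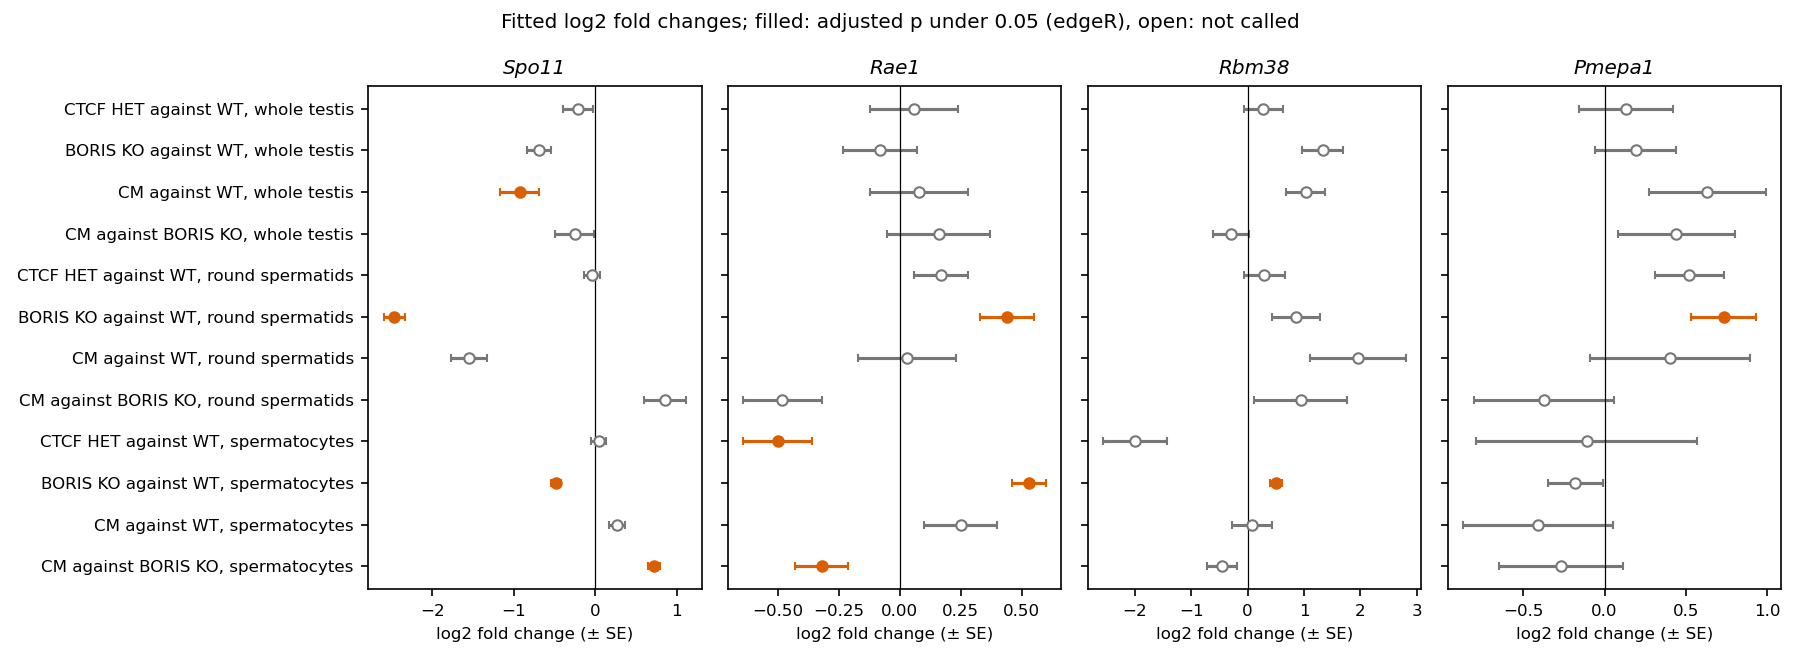
Fitted log2 fold changes (horizontal axes, each panel with its own scale; whiskers, SE) of Spo11, Rae1, Rbm38 and Pmepa1, the 4 genes tested in all 12 comparisons between genotypes. Filled marks passed an adjusted p < 0.05. Spo11 and Rae1 are displaced in opposite directions in BORIS KO round spermatids, -2.47 and 0.44.

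Zbp1 was lower in spermatocytes of each mutant genotype than in WT. It stood at 2.17 and 2.24 CPM in WT, 0.944, 1.18 and 1.1 in BORIS KO, 0.11, 0 and 0.436 in CTCF HET and 0.119, 0.401 and 0 in CM. All 9 mutant libraries lay below both WT libraries. BORIS KO fell by 1.04 ± 0.16 on the log2 scale (adjusted p = 1.83e-04), which was lost with all 4 genotypes in one fit (-1.04, 0.848). The larger differences of CTCF HET (-3.61 ± 1.62, adjusted p = 0.185) and CM (-3.61 ± 1.16, adjusted p = 0.107) rest on libraries with 0 to 30 counts and did not pass. CTCF HET and CM spermatocyte libraries were also those with fewest genes detected.

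In round spermatids Zbp1 was low, 0.293, 0.45 and 0.292 CPM in WT, lower than in WT spermatocytes by 2.66 on the log2 scale (-2.66 ± 0.32, adjusted p = 2.21e-04). In whole testis it held 7 to 17 counts in WT and 2 to 6 in CTCF HET, where the exact permutation p was 0.1. The other mutants were not lower there: BORIS KO stood at 0.759 CPM and CM at 0.796 against 0.54 in WT (exact permutation p = 0.7 and 0.4). Pck1, on the opposite side of Ctcfl, was close to silent: it had 0 counts in each of the 11 spermatocyte libraries, which allows up to 0.0321 to 0.0654 CPM at 3 counts a library, 0 to 79 in round spermatids, with the 79 in 1 CM library, and 0 to 33 in whole testis.

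Pmepa1 and Bmp7, which belong to TGF-beta and BMP signalling, frame the neighbourhood at either end. Pmepa1 stood at 1.41, 1.39 and 1.61 CPM in WT round spermatids, 2.34, 2.28 and 2.51 in BORIS KO, 2.39, 1.95 and 1.93 in CTCF HET and 2.44, 1.07 and 2.06 in CM. CTCF HET and BORIS KO lay above WT without overlap. BORIS KO rose by 0.73 ± 0.20 (adjusted p = 0.0133; lost without BORIS KO replicate 1, 0.73 with 0.0523, and with all 4 genotypes in one fit, 0.76 with 0.105), and CTCF HET gave 0.52 ± 0.21 (adjusted p = 0.103).

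Bmp7 stood at 0.7, 0.599 and 0.564 CPM in WT round spermatids, 0.594, 0.836 and 1.78 in BORIS KO, 0.242, 0.37 and 0.303 in CTCF HET and 0.438, 1.55 and 0.47 in CM. CTCF HET lay below WT without overlap, by 1.01 ± 0.37 on the log2 scale, and did not pass (-1.01, adjusted p = 0.0768). In whole testis Bmp7 stood at 2.95, 2.07 and 3.96 CPM in WT and 1.59 to 4.61 in the mutants, in a table made from RNA of another selection. WT spermatocytes held only 15 Bmp7 counts in all (mean 0.099 CPM), near the floor, and WT round spermatids 119. Between WT cell types Bmp7 was higher in round spermatids by 2.66 ± 0.52 (adjusted p = 0.0028), and Pmepa1 lower by 0.67 (-0.67 ± 0.25, adjusted p = 0.0424), the latter lost without WT round spermatid replicate 2 (-0.62, 0.0901) or 3 (-0.74, 0.052) and without WT spermatocyte replicate 1 (-0.49, 0.306) or 2 (-0.84, 0.0933).

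Per kilobase of exon, the order of the genes in WT followed the cell type. In spermatocytes Spo11 led with 40.6 CPM per kb, then Rae1 with 16.3, Rbm38 with 1.46, Zbp1 with 0.624 and Pmepa1 with 0.486, each clear of the next, and Ctcfl stood at 0.0225. In round spermatids Rae1 (17.4) and Spo11 (16.2) overlapped, as did Ctcfl (1.18) and Rbm38 (1.04), and the other 4 genes were at 0.3 or less. In whole testis Spo11 (16.7) and Rae1 (12.1) were apart from each other and from the rest, which lay at 0.744 or less.

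The number of members called was read against the share of all genes called in the same comparison. In BORIS KO round spermatids 4 of 8 were called, Ctcfl and Spo11 lower and Rae1 and Pmepa1 higher, where 55.8% of all genes were called. In BORIS KO spermatocytes 4 of 5 tested were called, Spo11 and Zbp1 lower and Rae1 and Rbm38 higher, where 57.2% were called. WT round spermatids and spermatocytes differed in 5 of 7, where 70% of all genes differed.

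Fewer calls were made in the other comparisons. In CM whole testis 1 of 5 was called beside 25.2% of all genes, in CTCF HET spermatocytes 1 of 5 beside 15.5%, and in CM against BORIS KO spermatocytes 2 of 5 beside 51.8%. Departure from the sum of the single mutants was called for 2 of 8 in round spermatids beside 37.4% and for 1 of 7 in spermatocytes beside 7.44%. The difference between cell types was called for 1 of 8 for BORIS KO beside 13.4% and for 1 of 8 for CM beside 3.51%, Spo11 in both. Pck1 gave no usable estimate in these fits, since it had no counts in spermatocytes.

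No member was called by edgeR in the 8 remaining comparisons. In whole testis these were CTCF HET (0.00621% of all genes called), BORIS KO (0.0551%), CM against BORIS KO (0.006%) and the departure from the sum (0%). At an unadjusted p < 0.05 in edgeR stood 0 of 5 members in CTCF HET (424 of 16097 genes) and 2 of 5 in BORIS KO (2717 of 16344). It was 1 of 6 for CM against BORIS KO (3594 of 16655) and 0 of 6 for the departure (1713 of 17185). In round spermatids they were CTCF HET (22.3%), CM (0.00654%) and CM against BORIS KO (23.2%), and in spermatocytes CM (0.604%). At the unadjusted threshold stood 2 of 7 members in CTCF HET round spermatids (5824 of 15238 genes) and 1 of 7 in CM (3136 of 15298). It was 2 of 8 for CM against BORIS KO (6213 of 15602) and 2 of 5 for CM spermatocytes (4391 of 14747). DESeq2 called 1 member in BORIS KO whole testis (2.36% of all genes called by it), 1 in CM round spermatids (11.9%), 2 in CM against BORIS KO round spermatids (37.4%) and 1 in CM spermatocytes (22.1%). It called 0 in CTCF HET whole testis (0.0186%), CM against BORIS KO whole testis (7.21%), the departure in whole testis (0.221%) and CTCF HET round spermatids (29.6%). With the replicate block, which applies in whole testis, edgeR called Spo11 and Rbm38 in BORIS KO whole testis, where 6.59% of all genes were then called, and the same pair in CM whole testis (43%). Where the block is not named, whole testis estimates, intervals and calls come from fits without it, which leave the pairing out. With the block 0.261% of all genes were called in CTCF HET whole testis. It was 7.36% for CM against BORIS KO and 0.0233% for the departure in whole testis. Member values of these blocked fits are not given. The comparisons against WT share their WT libraries.

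The 17 other annotated genes that start within 1 Mb of Ctcfl were counted in the same way. In BORIS KO round spermatids 11 of 16 were called, 7 higher and 4 lower, beside 55.8% of all genes, and in BORIS KO spermatocytes 9 of 14, 7 higher and 2 lower, beside 57.2%. Npepl1, an aminopeptidase gene, rose by 1.68 ± 0.19 in round spermatids and 0.89 ± 0.09 in spermatocytes, and Aurka, the mitotic kinase, by 0.64 ± 0.08 and 0.31 ± 0.07. Stx16, a syntaxin of the Golgi, fell by 1.29 ± 0.15 and 0.73 ± 0.08, and Ankrd60 by 0.59 ± 0.10 and 0.38 ± 0.06. In CM whole testis 3 of 15 were called, 20% beside 25.2% of all genes, Ankrd60 (-1.18 ± 0.25) and Rab22a (-0.90 ± 0.26) lower and Stx16 (0.75 ± 0.22) higher. None of them starts between Spo11 and Pmepa1 except 1300015D01Rik.

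The pathways of the remaining members were read from lists of 38 BMP and TGF-beta genes, 8 genes of gluconeogenesis and 19 genes of interferon and nucleic acid sensing. In CM whole testis 9 of 32 BMP and TGF-beta genes tested, 28.1%, were called, near the 25.2% of all genes. All 9 were higher, with a median log2 fold change of 0.84 over the list beside 0.00 over all genes. Chrd, an antagonist of BMPs, rose by 2.35 ± 0.38, and Tgfbr2, a TGF-beta receptor, by 2.01 ± 0.47, while Bmp7 itself was at -0.45 ± 0.36. Of the interferon list 5 of 15, 33.3%, were called there and rose, among them Irf7 (2.58 ± 0.46) and Ifih1 (1.85 ± 0.43), and the same libraries held 232 to 736 CPM of macrophage markers against 71.9 to 184 in WT. The part of those cells in these values was not tested.

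In BORIS KO round spermatids 13 of 23 genes of the BMP and TGF-beta list were called, 56.5% beside 55.8% of all genes. Of these 5 were higher and 8 lower, among them Acvr2b, an activin receptor (2.04 ± 0.29), and Tgfbr1 (-1.30 ± 0.13). Of the interferon list 3 of 14 were higher and 4 lower, 50% in all. Of the gluconeogenesis list 4 of 6, 66.7%, were called and rose, among them Pcx, pyruvate carboxylase (1.90 ± 0.28), and Pck2, the mitochondrial counterpart of Pck1 (1.52 ± 0.54), while Pck1 stood at 0.17 ± 0.75. In BORIS KO spermatocytes 3 of 4 gluconeogenesis genes rose, where 57.2% of all genes were called.

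The genes whose log2 CPM most resembled that of Ctcfl over the 23 sorted libraries were 2610528A11Rik (Pearson r = 0.97), 4933402N03Rik, Lrrc52, Dlx6as1 and Gpx6 (0.96 each), out of 17315 genes. For Spo11 they were Atp5h, Hspb6 and 9230110C19Rik (0.96 each), BC107364 and Zfp286 (0.95 each). Between the members, Ctcfl and Spo11 had an r of -0.65, Ctcfl and Bmp7 of 0.74 and Spo11 and Bmp7 of -0.83. These points share their cell type, 12 libraries being round spermatids and 11 spermatocytes.

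The chromatin lists set Ctcfl apart from its neighbours. Within 2 kb of the 8 genes lay 16 WT CTCF peaks, 5 WT BORIS peaks and 5 CM CTCF peaks, and all 5 BORIS peaks overlapped a WT CTCF peak. Ctcfl held 5 of the CTCF peaks and 2 of the BORIS peaks, Pmepa1 6 CTCF peaks, Spo11, Rae1, Zbp1, Rbm38 and Pck1 1 each, and Bmp7 none. Each list stands alone, its depth is unknown and heights were not compared between lists.

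The 2 BORIS peaks at Ctcfl were among the tallest in the BORIS list. The promoter peak had a height of 1808 and ranked 4 of 7652, and the intron 9 peak (chr2:172922816-172923161), over the array of motif copies, had a height of 1780 and ranked 5. For WT CTCF the order of these places was different. The intron 9 peak (chr2:172922475-172923563) had a height of 4263 and ranked 23 of 34625, and the promoter peak had 488, near the middle of the list (percentile 49.9).

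In CM the intron 9 peak was listed, with a height of 957, rank 4 of 21525, and the promoter peak was not. The CTCF peaks of intron 3 (height 2700), intron 7 (1053) and intron 8 (127) were not listed in CM either. The only Pol2 peak at Ctcfl in WT lay inside the gene, with its middle in exon 6 (score 244.83), and CM had none. No H3K4me3 peak lay at Ctcfl in either list. The CM mice carry the knockout allele of this gene, so for places inside it a lost peak and a lost stretch of DNA cannot be told apart.

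Of the 16 WT CTCF peaks at the 8 genes, 5 overlapped a CM CTCF peak, where 56.1% of all WT CTCF peaks did, and 5 overlapped a BORIS peak, where 17.5% of all did. The 5 that were kept, at Rae1, Ctcfl intron 9, Pck1, Zbp1 and Pmepa1, are 5 of the 6 tallest, with heights of 1863 and above. The cut of 1863 was the lowest kept height at these genes, so that 0 of the 10 lower peaks here were kept follows from it. Over the genome 97.5% of the 6098 WT CTCF peaks at least as tall as 1863 were kept and 47.3% of the lower ones. The sixth tall peak, which was not listed in CM, is that of Ctcfl intron 3.

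**Figure D5:**
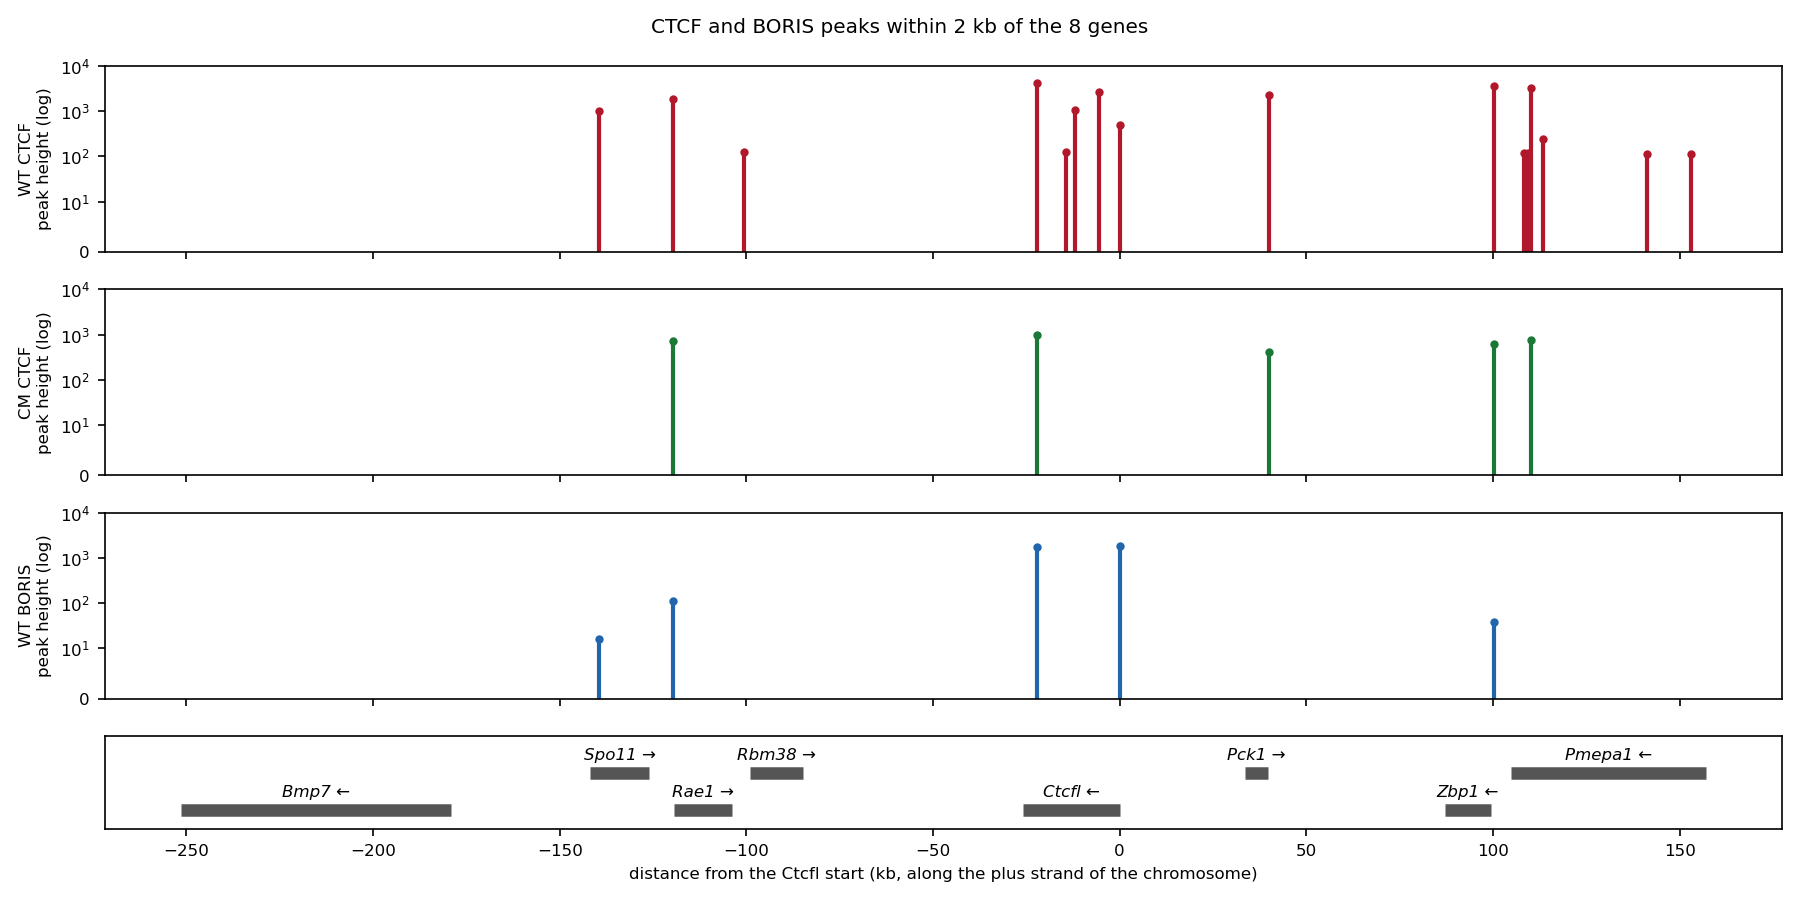
Heights (log axes, each list with its own panel) of CTCF peaks in WT and CM and of BORIS peaks in WT within 2 kb of the 8 genes, by distance in kb from the start of Ctcfl; the lowest panel shows the genes with their direction. CM keeps 5 of the 16 WT peaks, and both tall BORIS peaks belong to Ctcfl, with heights of 1808 and 1780.

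At Spo11 Pol2 and H3K4me3 were listed in both genotypes and CTCF in WT only. The WT CTCF peak (chr2:172805264-172805945, height 1016) had its summit 291 bp inside the gene from the nearest coding transcript start and was not listed in CM. A BORIS peak of height 16, rank 7637 of 7652, lay inside it. Pol2 scored 316.65 in WT and 408.07 in CM and H3K4me3 378 and 262.47, at percentiles 71.5, 80.7, 85 and 59.8 of their own lists.

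At Rae1 CTCF, Pol2 and H3K4me3 were listed in both genotypes: CTCF (1863 in WT and 721 in CM, percentiles 82.4 and 96.3), Pol2 (3100 and 2289.6, percentiles 99.9 and 98.5) and H3K4me3 (1424.31 and 834.75, percentiles 98.8 and 88.9), with a WT BORIS peak of height 112. Zbp1 had a CTCF peak 921 bp upstream of its start in both genotypes (3526 and 609, percentiles 97.4 and 89.2) with a low BORIS peak of 38. Rbm38 had Pol2 and H3K4me3 at its start in both genotypes, and its CTCF peak of 124, upstream, was not listed in CM. Pck1 had no Pol2 or H3K4me3 peak, and Bmp7 had H3K4me3 in WT only (72.26 at its start).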

How the data were processed

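RNA was measured in 35 libraries and chromatin in 7 peak lists. The deposited count tables hold, per the labels, reads per gene from the authors' alignment to mm9, with TopHat2 and Bowtie2 for rRNA-depleted whole testis RNA and STAR for poly(A) RNA of cells sorted by elutriation and flow cytometry. All isoforms of a gene are joined. The counting tool and its use of strand are not given in the sources used here. The authors deposited one peak list per antibody and genotype, whose coordinates are in mm9 and whose heights are a pileup signal for CTCF and BORIS and a score for Pol2 and H3K4me3; how replicates were combined is not given in the sources used here. Aligned reads outside these lists were not analysed here, and the sequence at the start of Ctcfl is not reported here.

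Each comparison was fitted on the whole table with edgeR 4.0.16 (R 4.3.3; TMM, filterByExpr, quasi-likelihood test), on the 2 groups compared or on all groups of an interaction, and p-values were adjusted by the Benjamini-Hochberg method over all genes tested. The SE is the log2 fold change divided by the root of its F value, and 95% intervals use the degrees of freedom of the fit. DESeq2 1.42.0, RLE size factors, no filter, all genotypes in one fit, a stricter threshold, a replicate block and leaving out each library were alternatives. Genes below the filter were compared by an exact permutation test. Peaks within 2 kb of a gene were assigned to it and shared peaks overlap by at least 1 bp. Sequences were read from the mm9 genome and gene starts from GENCODE vM1. Same-numbered whole testis libraries of different genotypes deviated from their group means together (correlations 0.18 to 0.71 in 18 of 18 pairs), so their numbers pair them. The main whole testis fits did not use this pairing, and the block was an alternative. In sorted cells the numbers were not taken to pair the libraries. Correlations there were -0.35 to 0.39 in round spermatids (9 of 18 pairs over 0.1) and -0.44 to 0.30 in spermatocytes (2 of 15). The edgeR test of BORIS KO against WT was also run, in each preparation, on counts simulated without pairing or outlying libraries. Its outcome is not given here. No pair of libraries was a duplicate. The genes named are the 8 members, Ctcf, called genes that start within 1 Mb of Ctcfl, at most 4 genes of each pathway list in a comparison, taken from those with the smallest adjusted p, and the 5 genes most correlated with Ctcfl and with Spo11; not all that qualified are printed. The members and lists were chosen with earlier results of these data known.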

Additional observations from a re-analysis of the deposited data

Results flagged for a closer look

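In round spermatids Spo11 in CM departed from the sum of the effects of CTCF HET and BORIS KO by 0.87 on the log2 scale and Rae1 by -0.67, both by an interaction test in edgeR. In spermatocytes the departure of Spo11 was 0.68. The effect of BORIS KO on Spo11 differed between round spermatids and spermatocytes by -2.07 and that of CM by -1.88. The CM libraries behind the values 0.87, -0.67, 0.68 and -1.88 were not lower in Ctcf than WT, nor were the CTCF HET spermatocyte libraries behind 0.68, and their part in these values was not tested. No group had the 4 libraries that a test for a single outlying library needs.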

How the results depend on the processing

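Fold changes were followed through the alternatives where edgeR called a member, and for some uncalled ones of Spo11. None of those followed changed direction. They include none of Pck1 and, for Bmp7, only that between WT cell types. Small fold changes, such as that of Rae1 in CM against WT round spermatids (0.03), were not among them. Whether those keep their direction is not shown. Percentages in parentheses are the shares of all genes called in the same fit. For the fold changes followed, 102 of the fits that changed something other than the libraries kept the value on its side of the threshold. A further 21 lost the call and 7 gained it. The causes of the changes below were not tested.

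In DESeq2 the members called were 1 for BORIS KO (2.36%) and 2 for CM (33.1%) in whole testis, 1 for CM (11.9%) and 2 for CM against BORIS KO (37.4%) in round spermatids, 2 for CTCF HET (22.1%) and 1 for CM (22.1%) in spermatocytes, 2 for the departure from the sum in spermatocytes (13%) and 3 for the BORIS KO difference between cell types (20.8%). Spo11 then passed in BORIS KO whole testis (-0.73), CM round spermatids (-1.54) and CM against BORIS KO round spermatids (0.84). RLE size factors gave 1 in CM against BORIS KO round spermatids (Spo11, 0.84; 25.3%) and 0 in CTCF HET spermatocytes (14.8%). Without a filter 2 were called in CM whole testis (16.9%) and 0 in CTCF HET spermatocytes (7.4%), and Ctcfl in BORIS KO round spermatids was -0.65 and no longer called. With all 4 genotypes in one fit 2 were called in CM whole testis (35.3%), BORIS KO round spermatids (31%), CM against BORIS KO round spermatids (42.7%), CTCF HET spermatocytes (21.2%) and BORIS KO spermatocytes (14.5%) and 1 in CM round spermatids (17.9%); Spo11 passed in CM round spermatids (-1.60) and against BORIS KO (0.84), and Ctcfl did not (-0.74). Requiring an adjusted p < 0.001 and a 2-fold change left 1 in BORIS KO round spermatids (15.5%), 1 in BORIS KO spermatocytes (4.77%) and 0 in CM whole testis (0%), CTCF HET spermatocytes (0%) and CM against BORIS KO spermatocytes (7%), so that Spo11 at -0.93, -0.48 and 0.72 and Ctcfl at -0.78 lost their calls.

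With the replicate number as a block, which pairs the libraries in whole testis only, 2 members were called in BORIS KO whole testis (Spo11 at -0.69; 6.59%) and 2 in CM whole testis (43%), and 0 in CTCF HET spermatocytes (18.1%); it changed no other count by over 1.5 times.

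Leaving out 1 library gave 0 to 1 members called in CM whole testis, CTCF HET and CM round spermatids, CM spermatocytes and the CM difference between cell types, 2 to 5 in BORIS KO round spermatids, 0 to 2 in CM against BORIS KO round spermatids and the departure in spermatocytes, 0 in CTCF HET spermatocytes, 3 to 4 in BORIS KO spermatocytes, 1 to 3 in CM against BORIS KO spermatocytes and the BORIS KO difference, 4 to 6 between WT cell types and 1 to 4 for the departure in round spermatids. Spo11 ranged from -0.99 to -0.75 in CM whole testis, -1.69 to -1.41 in CM round spermatids, 0.67 to 1.04 against BORIS KO there, 0.61 to 0.73 for the departure in spermatocytes and -2.03 to -1.71 for the CM difference, and Ctcfl from -0.94 to -0.52 in BORIS KO round spermatids.

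Within 10 kb of the genes lay 10 CM CTCF, 8 BORIS and 11 WT Pol2 peaks, with 10 WT CTCF peaks kept and 8 shared with BORIS. In the upper 50% of each list lay 8 WT CTCF, 3 BORIS and 2 CM H3K4me3 peaks, with 2 CTCF peaks shared with BORIS and 1 BORIS peak without CTCF. Within 500 kb of Ctcfl only 3 other genes were left. Low counts limit Ctcfl in whole testis and spermatocytes, Pck1 in every preparation and Bmp7 in spermatocytes. They limit Zbp1 in whole testis, in round spermatids and in CTCF HET and CM spermatocytes.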
